A study of Arabidopsis thaliana with 6 samples.

Results

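Mitochondrial complex I is the first enzyme of the respiratory chain, and 41 nuclear loci of Arabidopsis thaliana that encode its subunits were followed through a precipitation of ECT2-bound RNA. The loci were taken from a list of locus names of nuclear-encoded NADH dehydrogenase subunits and were matched by the transcript name before the dot in the site lists and by the gene name in the input tables. All 41 were found, out of 26678 nuclear protein-coding genes with a gene model and an input value. The group was put forward with earlier results of these data known, FA-CLIP events and input levels included, so its values are given as descriptions with no test.

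Complex I oxidises NADH in the mitochondrial matrix, passes the electrons through iron-sulfur clusters to ubiquinone and pumps protons across the inner membrane. Its matrix arm holds the NADH-oxidising and ubiquinone-reducing parts, and its membrane arm holds the proton pumps. The nuclear genes of the membrane arm followed here encode accessory subunits. In plants the membrane arm also carries a domain of gamma carbonic anhydrases. ECT2 is a cytoplasmic YTH-domain protein that binds mRNA carrying N6-methyladenosine, so the transcripts of the nuclear genes, and not the proteins, are the objects measured here.

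The 6 libraries came from seedlings aged 14 days in the Col-0 background, all fixed with formaldehyde, in 3 groups of 2. The input and FA-CLIP groups were plants labelled transgenic ECT2:ETC2-Flag/ect2, that is, a FLAG-tagged construct in the ect2 T-DNA insertion mutant. FA-CLIP libraries held RNA recovered from them on ANTI-FLAG M2 Magnetic Beads, input libraries held RNA without precipitation, and mock libraries held RNA from the same beads and wild-type plants. The labels do not say how many transgenic lines were used or whether replicates were separate plant batches, so the spread between 2 libraries may be technical.

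FA-CLIP libraries listed 901178 and 830355 conversion events, the mutation counts that mark crosslinked positions, and mock libraries listed 489805 and 653262. Sites were listed only from 2 events up, so a gene without a listed site is not shown to be unbound. Input values are FPKM with unknown read depth. Input held the photosynthetic transcripts RBCS1A, at 5371 and 5560 FPKM, and RCA, at 1483 and 1505 FPKM, together with the root and hypocotyl transcript PYK10, at 578 and 560 FPKM. The seed storage transcript CRA1 was at 0.0279 and 0.0255 FPKM and SESA1 was listed at 0 in both. ECT2 itself was at 72.1 and 74.9 FPKM in the input.

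Every complex I gene had listed sites in both FA-CLIP libraries. A reproducible site is here an interval in which listed sites of both FA-CLIP libraries overlap by at least 1 nt and are joined, so it can hold several listed sites of a library. Such a site was present in 41 of 41 loci, and in 31.5% of all nuclear protein-coding genes. The genes were also well expressed, between 10.4 and 350.1 FPKM, and of all genes within that input range 80.9% had such a site. Sorting all genes into 10 bins of rising input placed 36 of the loci in bin 10, where 86.6% of genes had a reproducible site. Another 4 loci were in bin 9, with 76.6%, and 1 was in bin 8, with 62.9%. The full count for complex I is therefore to be read against shares that were already high at this abundance.

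Together the loci held 6799 events in FA-CLIP replicate 1 and 9247 in replicate 2. These made up 1.54% ± 0.216 (SD, n = 2) of the events in nuclear protein-coding genes. In the mock libraries they held 8 and 12 events, or 0.0297% ± 0.00481 (SD, n = 2). The FA-CLIP shares, 1.39% and 1.69%, lay above both mock shares, 0.0262% and 0.0331%. Mock totals held a large share of AT2G01021 and AT5G45720, which together took 36.2% in replicate 1 and 44.8% in replicate 2, beside 2.78% and 0.728% in the FA-CLIP replicates. With both left out of the totals, a choice made after the values were seen, the complex I shares were 1.43% and 1.70% in FA-CLIP and 0.0411% and 0.0599% in the mock.

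The strongest sites of the 8 genes with the most events are shown because each held between 42.3% and 88.1% of the events in its gene's reproducible sites. Each line gives 30 nt of the RNA strand, written with T, around the midpoint of the site, with TAIR10 nuclear coordinates and sequence from the RefSeq copy of the genome. Capitals mark TGTA, the core of a motif found near plant m6A sites, or an m6A-type motif, which is AAAC followed by A, C or T, or the same with G in place of the first A, of the second A or of both.
AT1G76200 at chr1:28594652-28594681 (+): actacttgtgtgttgcacttcctgatcatg
AT3G08610 at chr3:2615458-2615487 (-): GAACTactctcttgctgtgtgagtgaataa
AT4G20150 at chr4:10888407-10888436 (-): tttcttctccttctctttgacttcagctct
AT1G67350 at chr1:25236743-25236772 (+): tgtttacgaacgagaaagaaataatgctca
AT3G12260 at chr3:3909072-3909101 (-): tatgagtattttctctgactcaggttggtt
AT5G11770 at chr5:3790994-3791023 (-): gtgtgtttctaagtttgttgtggAAACTta
AT5G47890 at chr5:19390509-19390538 (+): cgtggtgtcatatcgccttgcatttgagtt
AT3G03070 at chr3:696386-696415 (-): TGTAacattcaatctctgatatcactgtct
The intervals of AT4G20150, AT3G12260, AT5G11770 and AT3G03070 each join more than 1 listed site of a library, and those of the other 4 genes join 1 of each library. Each of the 8 windows occurs once in the nuclear genome as an exact match, and all lie in 3' UTRs. Only AT3G08610, AT5G11770 and AT3G03070 have capitals in these 30 nt.

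The membrane arm held the genes with the most events. AT1G76200, which encodes the AGGG subunit (counterpart of human NDUFB2), had 525 events in FA-CLIP replicate 1 and 844 in replicate 2, no mock site in replicate 1 and 3 mock events in replicate 2, at 113 and 98.0 FPKM. Its site shown above, 172 nt past the stop codon, held 296 and 693 of these events. AT3G08610, for the MWFE subunit (human NDUFA1), had 550 and 790 FA-CLIP events and at most 2 mock events per library, at 133 and 116 FPKM. Its strongest site, with 327 and 585 events, lay 242 nt past the stop codon in a 3' UTR of 289 nt. For both genes the lower FA-CLIP library stood far above the higher mock library.

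AT2G02510, for a B12 subunit (human NDUFB3), had 220 and 291 FA-CLIP events, and AT2G42210, for the TIM17-family subunit B14.7 (human NDUFA11, symbol OEP16-3), had 167 and 317. Neither had a mock site. AT3G18410, for a PDSW subunit (human NDUFB10), had 229 and 246 events, and AT2G42310, for an ESSS subunit (human NDUFB11), had 229 in each library. Each of this second pair had 1 mock site, with 2 events. CIB22 (AT4G34700), an LYR-family subunit, had 221 and 225 events at 82.2 and 74.5 FPKM, AT2G02050, for B18 (human NDUFB7), had 189 and 241, and AT5G47570, for ASHI (human NDUFB8), had 151 and 204. AT2G31490, for B15 (human NDUFB4), had 135 and 144 events and 1 mock site of 2 events in replicate 2. These 4 genes lay within the middle of the range of their arm. Over the 19 genes of the membrane arm, mean events ran from 32 to 684.5 per gene with a median of 215, and input ran from 15.8 to 124 FPKM with a median of 59.1.

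Event counts in the matrix arm overlapped with those of the membrane arm. In the NADH-oxidising arm, 7 genes had 84 to 292.5 mean events, with a median of 187.5. AT5G47890, for the accessory B8 subunit (human NDUFA2), was the highest, with 225 and 360 events at 83.7 and 72.3 FPKM. It was followed by AT3G03070 (human NDUFS6), with 241 and 285 events at 70.5 and 59.6 FPKM. CI51 (AT5G08530, human NDUFV1), the core subunit that binds NADH and FMN, had 151 and 227 events. The iron-sulfur subunit EMB1467 (AT5G37510, human NDUFS1) was the lowest of this arm, with 64 and 104. FRO1 (AT5G67590, human NDUFS4), an accessory subunit known from a cold-response mutant, had 100 and 173. The iron-sulfur subunit gene AT4G02580 (human NDUFV2) had 101 and 196, and AT3G03100 (human NDUFA12), an accessory subunit, had 168 and 207. None of these 7 genes had a mock site.

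In the ubiquinone-reducing part, 6 genes had 35.5 to 352.5 mean events. AT3G12260, for the LYR-family subunit B14 (human NDUFA6), had 318 and 387 events at 78.6 and 67.7 FPKM, with 2 events in mock replicate 1 and no site in mock replicate 2. AT5G11770, for the iron-sulfur subunit PSST (human NDUFS7), had 284 and 314 events at 105 and 114 FPKM, and no mock site. The accessory genes AT5G52840 (human NDUFA5) and AT2G20360 (human NDUFA9) had 122 and 173 events and 124 and 234 events. Both genes of the core subunit TYKY (human NDUFS8) were lower, and they are described with the other pairs.

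The carbonic anhydrase domain had the lowest median, 67.5 mean events per gene. GAMMA CAL1 (AT5G63510) had 104 and 109 events, GAMMA CA2 (AT1G47260) 72 and 118, and GAMMA CA3 (AT5G66510) 73 and 62. GAMMA CAL2 (AT3G48680) had 69 and 57, and GAMMA CA1 (AT1G19580) had 12 and 44. These 5 genes also had low input, between 10.4 and 37.8 FPKM, and no mock site. GAMMA CA1 was the lowest of all 41 in input, and its 2 FA-CLIP libraries differed by a larger ratio than those of the other 4.

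A further 4 loci were not assigned to an arm. AT4G20150 had 361 and 567 events at 102 and 90.9 FPKM, with a single mock site of 2 events in replicate 2. AT1G67350 had 409 and 455 at 55.5 and 49.6 FPKM. AT4G16450 had 111 and 244 events at 77.3 and 72.6 FPKM, and AT1G67785 had 12 and 10. The first pair ranked 3 and 4 of the 41 by events, and AT1G67785 ranked 41.

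**Figure D1:**
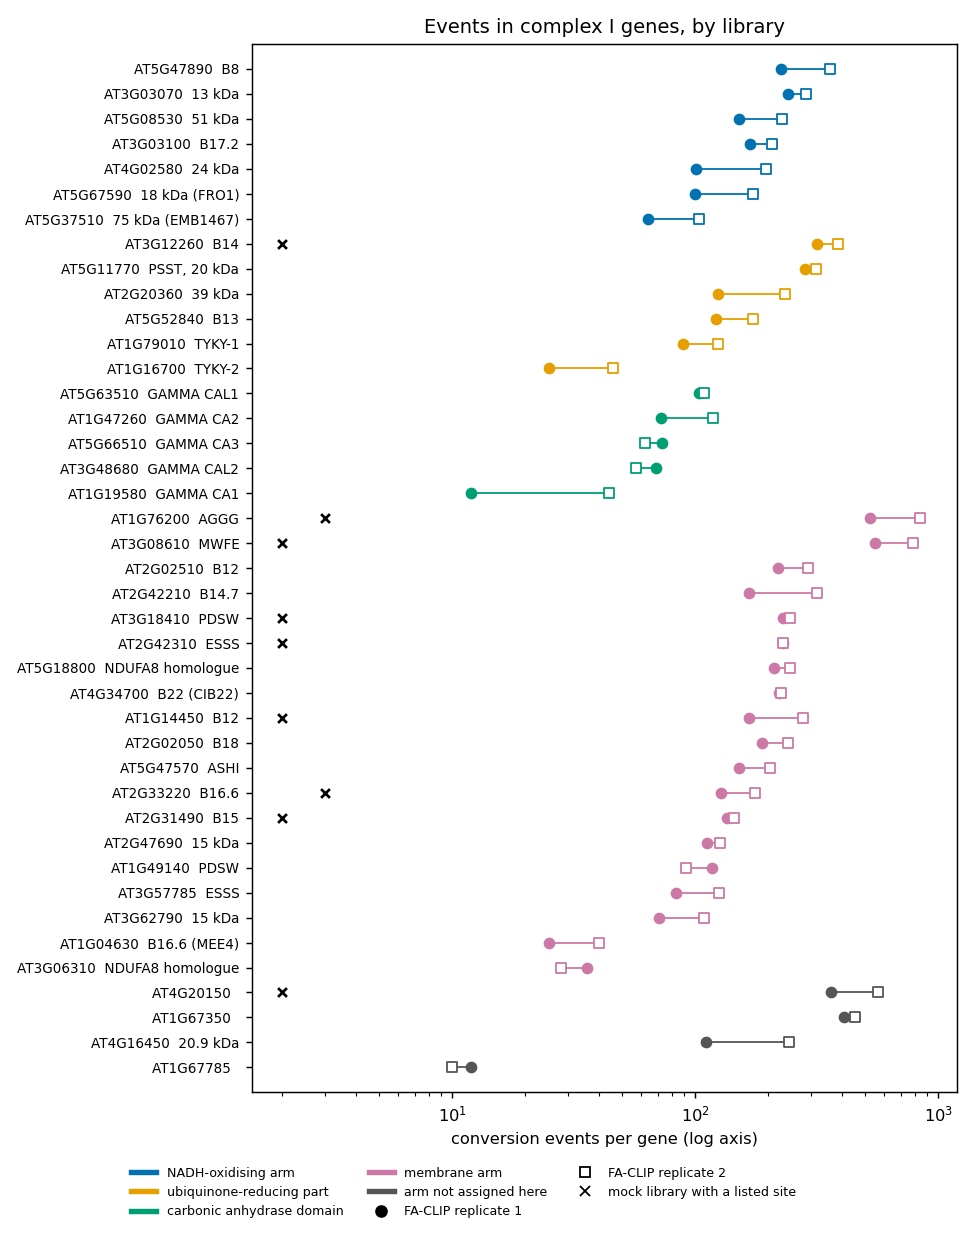
Conversion events per gene (log axis) in FA-CLIP replicate 1 (filled circles) and replicate 2 (open squares), with crosses for mock libraries that list a site, for the 41 genes grouped by part of the complex. Mock crosses sit at 2 or 3 events, and the lowest FA-CLIP value is 10 events, in AT1G67785.

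The 6 genes of core subunits, which carry the catalytic centres, had a median of 127.5 mean events and a median input of 38.6 FPKM, and the 35 others had 177.5 events and 58.6 FPKM. These counts add all listed sites of a gene. When only sites that overlapped by at least 50% of each between libraries were added, events fell by over 1.5 times in 20 of the 29 genes followed through that alternative, as in AT4G20150, from 464 to 26 mean events, and stayed within that bound in AT1G76200 (684.5 and 631) and AT3G08610 (670 and 533).

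In all 41 genes the lower FA-CLIP library had more events than the higher mock library, which held for 34.2% of all nuclear protein-coding genes and 83.9% of genes within the same input range. A mock site was listed for 9 of the 41, against 4.11% of all genes and 13.1% of genes in that input range. The 9 sites fell in 9 different genes, 4 in mock replicate 1 and 5 in replicate 2, none had more than 3 events, and no gene had one in both libraries. Of the 9, 6 overlapped a reproducible FA-CLIP site of the same gene, and 5 lay in coding sequence.

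FA-CLIP replicate 2 gave more events than replicate 1 in 35 of the 41 genes, against 58.9% of all genes listed in both libraries. The median ratio of replicate 2 to replicate 1 was 1.38 for complex I and 1.18 over all genes of 1 FPKM or more listed in both. In the input the difference went the other way, with 37 of the 41 genes lower in replicate 2, against 54.5% of genes of 1 FPKM or more. The median input ratio of replicate 2 to replicate 1 was 0.906 for complex I and 0.987 over all genes of 1 FPKM or more. These shifts are between libraries of 1 group and are part of the replicate spread.

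Across the 41 genes, events per gene in the 2 FA-CLIP libraries had a Spearman correlation of 0.930, and mean events and mean input had one of 0.689. Without AT1G67785 the second value was 0.819 over 40 genes. Over the 8316 genes with a reproducible site and at least 1 FPKM it was 0.697. These are correlations across genes that share the same libraries, and genes are not replicates.

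**Figure D2:**
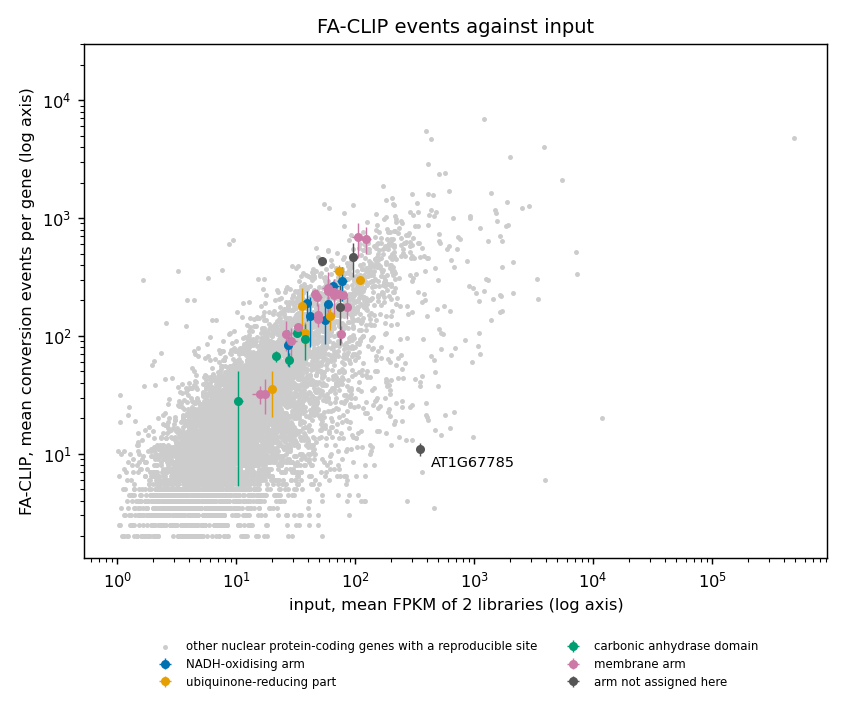
Mean FA-CLIP events per gene against mean input FPKM, both on log axes, for complex I genes by part of the complex (bars are the SD of 2 libraries) and other nuclear protein-coding genes with a reproducible site (grey). AT1G67785, at 350.1 FPKM and 11 events, lies far below the other complex I genes, which run from 10.4 to 124 FPKM and from 28 to 684.5 mean events.

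To set recovery against abundance, each gene of 1 FPKM or more was given a recovery score. Its numerator was the mean of the FA-CLIP events with 1 added, its denominator the product of mean FPKM and the transcript's kb, and the ratio was put on a log2 scale. The median score was 1.58 for the 41 genes, -0.94 over all 16949 scored genes and -0.23 over the 5396 genes within the input range of complex I. Single FA-CLIP libraries were scored over the same mean FPKM of both input libraries, not over 1 input library each. There the complex I median was 1.47 and 1.91, and the median of all scored genes was -1.11 and -0.92. Of the 41 genes, 40 were above the median of all scored genes, where 50% of genes lie by construction, and 33 were at or above its 90th percentile, a score of 1.20. Shares within the input range are not given for these cutoffs. The upper quartile was 0.869 there and 0.265 over all scored genes. Scored genes include those without any listed site, whose numerator is the added 1 alone. A reproducible site was present in 8316 of the 16949 scored genes and in 4363 of the 5396 within the input range. All 41 complex I genes had one, so ranks among scored genes also reflect the presence of sites. Complex I transcripts were also shorter, which enters the denominator, with a median of 0.891 kb against 1.432 kb in that range and 1.665 kb over all scored genes. Events and FPKM are different units from different library kits, so a score has meaning only beside other scores.

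The highest score was that of AT1G76200, the AGGG gene, at 3.42, with 3.04 and 3.72 in the single FA-CLIP libraries. AT1G67350 followed at 3.26 (3.18 and 3.33) and AT3G08610, for MWFE, at 3.05 (2.76 and 3.29). AT5G18800, for an NDUFA8 counterpart, had 2.73 (2.62 and 2.84). Scores below 0 were found in 3 genes. GAMMA CA2 had -0.14, with -0.54 and 0.17 in the single libraries, and AT1G49140, for a PDSW subunit, had -0.02, with 0.14 and -0.20. AT1G67785 had -4.47.

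By part of the complex, the median score was 2.23 in the membrane arm, 1.58 in the NADH-oxidising arm, 1.43 in the ubiquinone-reducing part and 0.93 in the carbonic anhydrase domain. The order of the first pair did not hold without transcript length in the score, where the NADH-oxidising arm had 1.85 and the membrane arm 1.75. The ubiquinone-reducing part and the carbonic anhydrase domain then had 1.49 and 1.48, so the gap between them also depended on length. Membrane arm transcripts were short, with a median of 0.748 kb against 0.924 kb in the NADH-oxidising arm and 1.23 kb in the carbonic anhydrase domain. Across the 41 genes the score and transcript length had a Spearman correlation of -0.692, and over all genes in the input range it was -0.247. Because length is in the denominator of the score, part of a negative value is built in, and without length in the score the correlations were -0.20 and 0.084. The part of transcript length in these differences was not tested. GAMMA CA2 was scored on a transcript model of 2.81 kb with a 3' UTR of 1833 nt, and without length its score was 1.35.

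**Figure D3:**
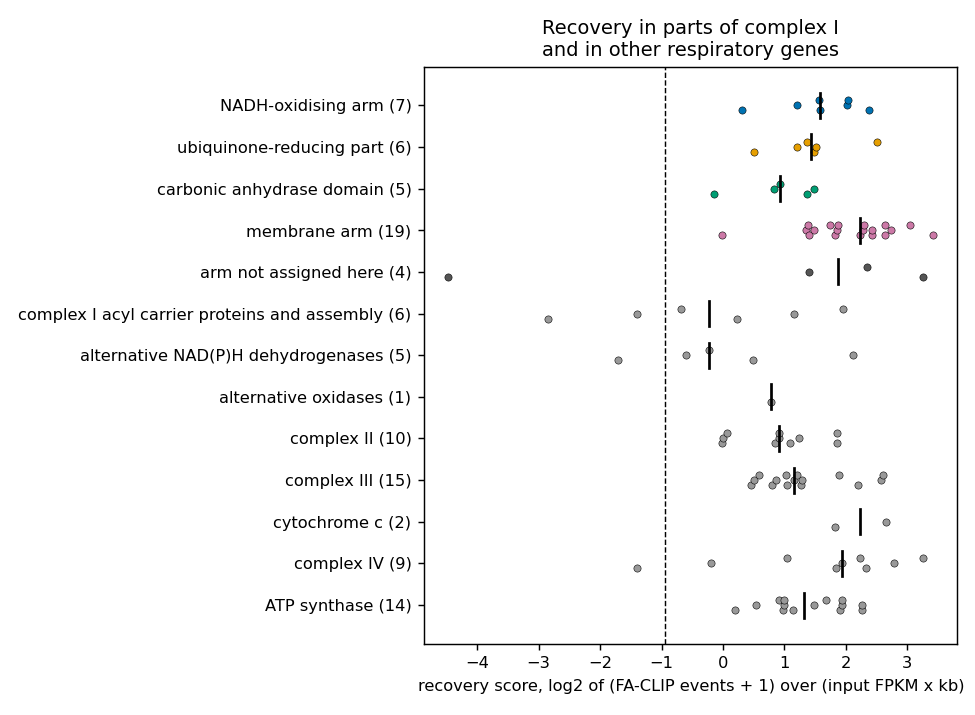
Recovery score (log2 scale) of each gene in the parts of complex I (coloured) and in other respiratory gene lists (grey), with the number of scored genes in brackets, black bars at the medians and a dashed line at the median of all scored genes, -0.94. Complex I medians run from 0.93 in the carbonic anhydrase domain to 2.23 in the membrane arm, and AT1G67785 stands alone at -4.47.

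AT1G67785 went against the rest, and is described in detail because of these values. It had the highest input of the 41, with 353 and 347 FPKM, and the fewest events, 12 and 10. Its score, at percentile 2.25 of all scored genes, was -4.35 and -4.59 in the single libraries. It had 2 reproducible sites. The stronger, with 3 and 5 events, lay 22 nt past the stop codon on chromosome 1 and is shown to set beside the sites above.
AT1G67785 at chr1:25416063-25416092 (-): ctgcagtcatgcttttgggtgtcttaatca
This window also occurs once in the nuclear genome, and holds none of the motifs above. RefSeq names the product an uncharacterized protein. The input FPKM depends on the gene model the authors used, which is not given in the sources used here.

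Reproducible sites numbered 189 in the 41 genes, with a median of 4 per gene and a range from 1 to 9, against a median of 3 in genes of the same input range that had any. More than 1 such site was present in 39 of the genes, a count to be read beside that median of 3. In complex I genes 79.0% (95% Wilson interval 74.2 to 83.1) of 319 sites in replicate 1 overlapped a site of replicate 2, and 83.8% (79.5 to 87.4) of 328 sites the reverse. No site of these genes was also listed for another locus. Shares over all genes are not given for these counts and overlaps.

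Most of the signal lay in 3' UTRs. Of the 189 sites, 63.5% (56.4 to 70.0) were in the 3' UTR, 28.0% in coding sequence and 5.29% in the 5' UTR, and over all 20495 reproducible sites these shares were 71.7%, 21.8% and 3.38%. By events the 3' UTR held 89.2% in complex I genes and 85.0% over all genes, so the coding-sequence sites were many but weak, with 5.46% of the complex I events. In the single libraries 84.5% and 89.6% of complex I events were in the 3' UTR. Per kb, complex I genes had 7.99 sites in the 3' UTR and 2.46 in coding sequence, against 5.60 and 0.421 in all genes with a site. Those genes were not matched for abundance, and sites are listed only from 2 events up. Median events per gene were 177.5 in complex I, 18.5 in all genes of 1 FPKM or more with a reproducible site, and 37.5 in such genes within the input range. The part of abundance in site density was not tested. Intervals cover counting error only, and sites of a gene share their source.

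The strongest reproducible site lay in the 3' UTR in 38 of the 41 genes, against 92.2% of all genes with a site. The others were EMB1467 (AT5G37510) and AT2G33220, where it fell in an intron of the transcript model with the longest coding sequence, and AT3G18410, where it fell beyond the end of that model. The authors' own label was 3' UTR for the strongest site of all 41 genes in both libraries, against 95.1% of all genes with a site. These 3 exceptions thus depend on the gene model.

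Within the 3' UTR, the 38 strongest sites lay between 22 and 271 nt past the stop codon, with a median of 133 nt, against 116 nt over all genes. Of these, 31 lay 100 to 250 nt past it, a range that also holds the median over all genes, whose share in it is not given here. All 120 reproducible 3' UTR sites had a median distance of 131.5 nt, at 42.8% of the length of the 3' UTR, and over all genes these medians were 116 nt and 40.3%. In the median gene the strongest site held 57.1% of the events in reproducible sites. Of these 41 strongest sites, 28 joined more than 1 listed site of a library, and the share over all genes is not given here. In AT4G20150 the strongest, joined from 2 listed sites in replicate 1 and 4 in replicate 2, held 88.1% of the events, and in AT3G12260, which had sites at 41, 165 and 258 nt past the stop codon with 85, 149 and 97.5 mean events, the strongest held 42.3%.

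**Figure D4:**
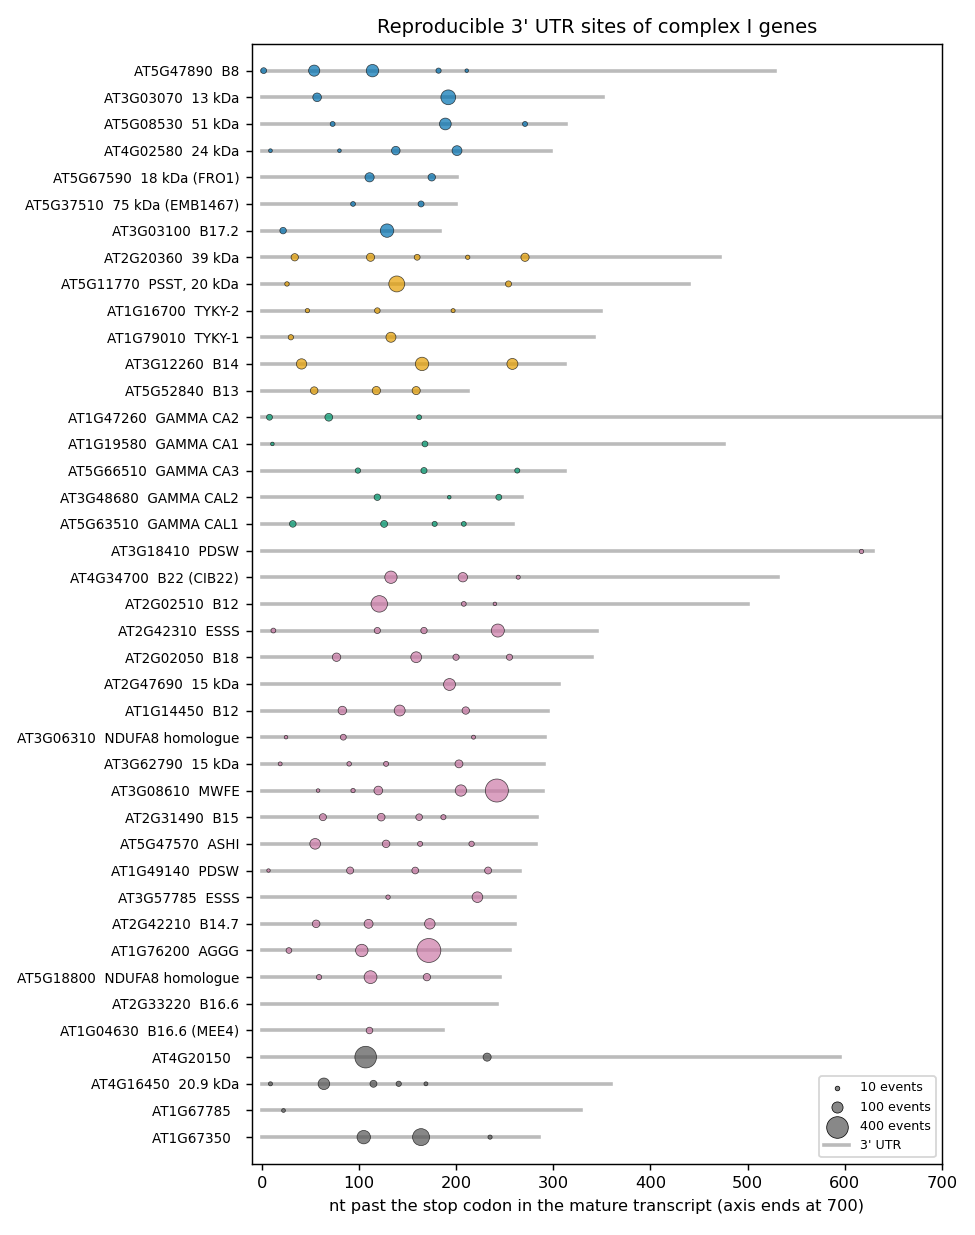
Reproducible 3' UTR sites (circles, area rising with mean events) of each complex I gene by distance in nt past the stop codon, on the length of its 3' UTR (grey), in the transcript model with the longest coding sequence. The largest circles are those of AT1G76200 at 172 nt, AT3G08610 at 242 nt and AT4G20150 at 107 nt, and AT2G33220 has none in this model.

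Motifs in the 30 nt at the midpoint of each site were counted on the RNA strand only. TGTA was in 11.1% (7.38 to 16.4) of the 189 complex I windows, and in 21.1% (20.5 to 21.6) of all 20495. Among 3' UTR windows the shares were 11.7% (7.08 to 18.6) and 25.5% (24.8 to 26.2). In 30-nt tiles of the same 3' UTRs outside any listed site TGTA was in 13.75% (9.26 to 19.9) for complex I and 14.8% (14.4 to 15.1) for all genes with a site. The share in complex I midpoint windows was thus close to that of the surrounding 3' UTR. Windows cover only the middle of a site, whose median width was 54 nt in complex I and 48 nt over all genes. Whole sites held TGTA in 26.5% of cases in complex I and 33.3% over all genes, and longer stretches hold more letters by construction. The part of window placement in the low share was not tested. In the strongest site of each gene, TGTA was in 8 of 41 complex I windows, or 19.5% (10.2 to 34.0), against 27.8% (26.8 to 28.7) over all genes. The m6A-type letters were in 32.3% (26.0 to 39.2) of complex I windows of all regions and 29.7% (29.1 to 30.4) of all. For 3' UTR windows alone these shares were 30.8% (23.3 to 39.6) and 28.8% (28.0 to 29.5). The 3' UTR tiles outside sites held the letters in 36.9% (29.8 to 44.6) for complex I and 28.6% (28.1 to 29.1) for all. Windows of a gene are not independent, and no test was made.

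A pair of loci encodes the same subunit in 7 cases, and these pairs allow genes of like function to be set side by side. With all listed sites counted, the highest ratio of events was that of NDUFA8, a subunit of the Cox19-like family. AT5G18800 had 210 and 245 events and AT3G06310 had 36 and 28, a ratio of 7.11, while input, at 46.7 and 45.3 FPKM against 17.4 and 14.2 FPKM, had a ratio of 2.91. The score was higher for AT5G18800 by 1.07 and 1.65 in the single FA-CLIP libraries. With at least 50% of each site overlapping, this pair had 54 and 21.5 mean events and the NDUFA13 pair 121.5 and 8.5, so NDUFA8 no longer had the highest ratio. Their strongest sites are shown to compare them.
AT5G18800 at chr5:6268491-6268520 (+): tcatcccatttatttcctctcagatgcttt
AT3G06310 at chr3:1913161-1913190 (-): actcttccatcgctgcctgcttcttttcct
The first site had 139 and 133 events at 112 nt past the stop codon, and the second 32 and 11 events at 84 nt. Neither window holds any of the motifs.

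For NDUFA13, the GRIM-19 subunit B16.6, AT2G33220 had 128 and 176 events and MEE4 (AT1G04630) had 25 and 40, at an input ratio of 2.76. For NDUFS8, TYKY-1 (AT1G79010) had 89 and 124 and TYKY-2 (AT1G16700) had 25 and 46, at an input ratio of 1.90. In both pairs the gene with more events also had more input, and the score differed by 0.47 and 0.87 on the log2 scale.

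For NDUFB10 the order of events and input was opposite. AT3G18410 had 229 and 246 events and AT1G49140 had 117 and 92, though input was 73.8 and 58.9 FPKM for the first and 80.6 and 72.2 FPKM for the second. The score was higher for AT3G18410 by 1.67 and 2.12 in the single libraries, the largest score difference of the 7 pairs. Without transcript length the mean scores were 1.85 for AT3G18410 and 0.47 for AT1G49140. In AT3G18410 only 3.42% of the events in reproducible sites lay in the 3' UTR of the scored transcript model. Its other reproducible sites lay beyond the end of that model, in RNA not counted in the length. For NDUFB11, AT2G42310 had 229 in both libraries and AT3G57785 had 83 and 125, at an input ratio of 2.80. There the score of AT2G42310 was lower, with differences of -0.59 and -1.17. Its transcript was longer, at 0.948 kb against 0.644 kb. Without length the mean scores were closer, at 1.66 for AT2G42310 and 2.01 for AT3G57785. The part of transcript length in these pair differences was not tested.

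The other 2 pairs were close. For NDUFS5, AT2G47690 had 112 and 126 events and AT3G62790 had 71 and 109. For NDUFB3, AT2G02510 had 220 and 291 and AT1G14450 had 166 and 279, and the libraries of these 2 genes overlapped. The score differences changed sign between the libraries in both pairs, at 0.28 and -0.16 for NDUFS5 and at 0.22 and -0.12 for NDUFB3. Over the 7 pairs the gene with more events had the higher input in 5. Between 0.255% and 8.37% of the 20-mers of a transcript were shared with its partner, most for TYKY.

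**Figure D5:**
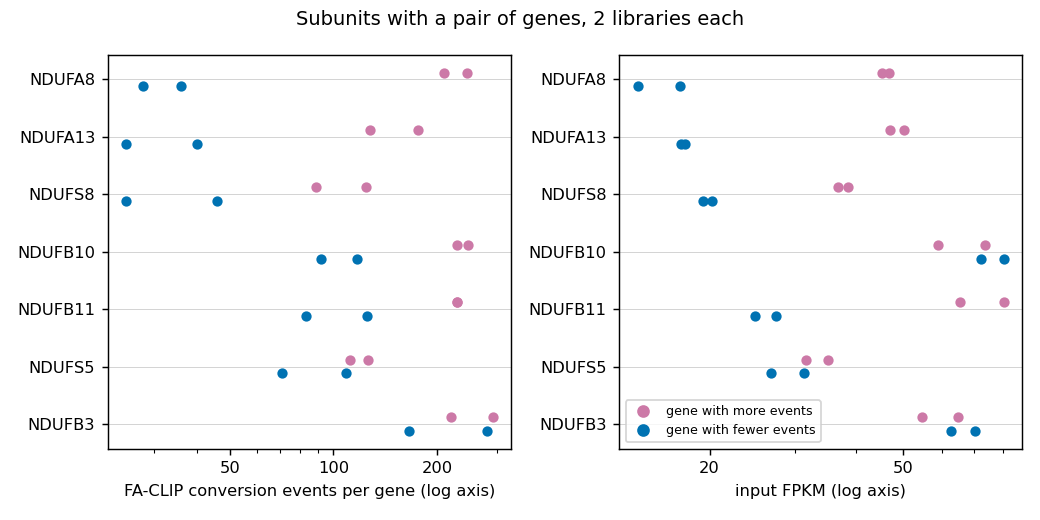
Events in both FA-CLIP libraries (left) and FPKM in both input libraries (right) for the 7 subunits encoded by a pair of genes, on log axes and named by the human counterpart. The genes separate in events in 6 pairs and overlap for NDUFB3, and the order of input is opposite to that of events for NDUFB10 and NDUFB3.

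Other respiratory genes give a frame for these values, in lists set from general knowledge of the pathway. A reproducible site was present in 10 of 12 genes of complex II, 14 of 15 of complex III, 9 of 9 of complex IV, 2 of 2 of cytochrome c and 14 of 14 of the ATP synthase, against the 31.5% of all genes. The median input of these lists ran from 30.3 to 69.4 FPKM. Among all genes within the input range of complex I the share was 80.9%, so these counts too stand beside a high share. Median scores were 0.91, 1.16, 1.94, 2.23 and 1.31 in the same order, beside 1.58 for complex I. By mean events the highest gene among them was AT4G37830, for a subunit of cytochrome c oxidase, with 1328 and 647, though in replicate 2 AT5G59613, of the ATP synthase, had 660. AT5G61310, also of complex IV, had more events in the mock libraries, 27 and 31, than in FA-CLIP, 19 and 4, which no complex I gene did. In complex III, AT5G25450 had no site in replicate 1 and 6 events in replicate 2, at 1.48 FPKM.

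Genes that act around complex I had lower input, so their counts cannot be set directly beside that of complex I. Of 6 genes for mitochondrial acyl carrier proteins and complex I assembly, 4 had a reproducible site, at a median input of 7.71 FPKM, against 31.5% of all genes. In input bin 8, where that median falls, the share was 62.9%. The acyl carrier protein gene mtACP2 had 216 and 313 events at 84.9 FPKM, and mtACP3 had no site at 8.37 FPKM. GLDH, the last enzyme of ascorbate synthesis and a complex I assembly factor, had 14 and 10 events at 4.96 FPKM. Of 7 alternative NAD(P)H dehydrogenases, which bypass complex I without pumping protons, 3 had a reproducible site, at a median input of 3.53 FPKM. NDB2 had 35 and 45 events at 3.99 FPKM, a score of 2.12, and NDA1 had 66 and 138 at 34.0 FPKM, a score of 0.48. Of 5 alternative oxidases, with a median input of 0.174 FPKM, only AOX1A had one, with 40 and 69 events at 18.3 FPKM, and the other 4 were at 0.357 FPKM or less, among them AOX1B and AOX2, which were listed at 0.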

How the data were processed

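Reads were handled with cutadapt and Bowtie against TAIR10, per the submitters' processing notes, which give no versions. How sites were called, how genes were counted and with which annotation is not given in the sources used here. Per the labels' protocols, input was made with an RNA kit and precipitates with a small RNA kit. The deposited site lists hold, per the file headers, conversion events as counts, unscaled and from 2 events up. The deposited input tables give 1 FPKM value per gene, a unit inferred from their layout and values.

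Sites repeated over transcripts of a gene entered once. Regions and lengths came from RefSeq TAIR10.1 models, 1 transcript per gene with the longest coding sequence. The score used a pseudocount of 1 event. No test was run: with 2 libraries in each group, exact permutation reaches p = 0.333 at the lowest. The members, the lists and the rule for named genes (the 12 with most events, the 7 pairs, the 5 carbonic anhydrases) were chosen with earlier results of these data known. AT1G67785 and genes beyond that rule were named after their values were seen. Shares carry 95% Wilson intervals. The alternatives varied the overlap, the event minimum, the transcript model, the window, the pseudocount and the libraries. Python 3.11.15, numpy 2.4.6, scipy 1.17.1, pandas 2.3.3 and matplotlib 3.10.9 were used, and the joining, region and score steps were tested on simulated data.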

Additional observations from a re-analysis of the deposited data

How the results depend on the processing

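No paired analysis was possible because no result comes from a test. With at least 50% of each site overlapping, 40 of the 41 genes had a reproducible site (GAMMA CA3 did not), and with sites above the median number of events 40 did (AT1G67785 did not). The mock count of 9 genes was 4 to 5 without either mock library and 0 both for a site in both libraries and for sites above the median events. The 3' UTR share was 70.9% by the authors' label and 55.2% to 61.3% without either FA-CLIP library. The median score was 1.47 to 1.91 without either FA-CLIP library. TGTA was in 21.7% of 50-nt windows and 26.5% of whole sites, against 32.9% and 33.3% over all genes, and the m6A-type letters in 47.6% and 53.4%, against 47.2% and 46.6%; longer windows hold more letters by construction. Under the stricter overlap events fell by over 1.5 times in 20 of 29 named genes, among them AT4G20150 (464 to 26), AT2G02510 (255.5 to 11.5), AT3G12260 (352.5 to 124), AT3G03070 (263 to 92) and AT1G67350 (432 to 156.5), while AT1G76200 kept 631 and AT3G08610 533. The order within pairs held in 6 of 7 and turned for NDUFB3, at 11.5 and 126.5 events, and the NDUFA8 pair had 54 and 21.5. The cause was not tested. With events of reproducible sites only, 4 of the 29 genes moved beyond 1 SD. Leaving out a FA-CLIP library cannot move a mean of 2 beyond 1 SD, so that measure says nothing there. It moved mean events by over 1.5 times in 2 of the 41 genes, GAMMA CA1 (28 to 12 or 44) and AT4G16450 (177.5 to 111 or 244). Input read depth is unknown, and sites under 2 events are not listed.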
